A study of Mus musculus with 6 samples.

Results

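Fatty acid oxidation in dendritic cells was followed through 35 genes that encode enzymes, carriers and regulators of the mitochondrial and peroxisomal pathways. The members were chosen by name, with earlier results of these data known. Each matched 1 row of a table of 30587 rows of read counts. By compartment, 18 encode mitochondrial proteins, 10 peroxisomal proteins, 4 proteins found in both organelles or of uncertain place, and 3 regulators of transcription. RNA was sequenced from dendritic cells grown from bone marrow of C57BL/6 mice. WT cells (3 libraries) carried Hif2afl/fl alleles, and KO cells (3 libraries) carried CD11c-Cre and the same Hif2afl/fl alleles. All 6 cultures, WT included, had received dimethyloxalylglycine (DMOG), an inhibitor of the prolyl hydroxylases and so a stabilizer of HIF α, for 24 h, followed by the glycolipid α-GalCer for 4 h. The contrast of KO with WT, under DMOG in both, was made to learn how HIF-2α affects glycolipid presentation. Cre is driven by the promoter of Itgax (CD11c) and acts only in cells that express it. Whether the libraries of a group came from separate mice or cultures is not in the labels, so the spread that p-values rest on may be technical.

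Fatty acids are burned in mitochondria by a cycle of dehydrogenation, hydration, a further dehydrogenation and thiolysis, which passes electrons to the respiratory chain and releases acetyl-CoA. Long chains enter by the carnitine shuttle, and CPT1 at the outer membrane is its controlled step. Peroxisomes run a parallel cycle on very-long-chain, branched and dicarboxylic acids, whose first step makes hydrogen peroxide, and pass shortened chains on to mitochondria as carnitine esters. PPARα and PPARδ are lipid-activated nuclear receptors that drive genes of both cycles, and the HIF proteins are known to restrain fatty acid oxidation in several tissues.

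Total counts ran from 14668641 to 17884160 per library. Levels are given as CPM, the counts scaled to library size with TMM factors, and fold changes are KO relative to WT from the quasi-likelihood test of edgeR, with ± the SE. A gene was called changed at a Benjamini-Hochberg adjusted p under 0.05 over all 13249 rows tested. Epas1, the gene of HIF-2α, had 20.0, 22.7 and 23.8 CPM in WT 1, 2 and 3 and 9.58, 12.7 and 11.5 CPM in KO 1, 2 and 3, a 1.98-fold lower level in KO (log2 fold change -0.98 ± 0.12, edgeR adjusted p = 3.45e-05). Its count covers the whole gene, and the deleted exons are not named in the labels. WT 2 stood apart, with a read in 25408 rows, and KO 1 came next with 22275, against 18763 to 19513 in the other libraries. Rows with a single read were 4825 in WT 2, 3610 in KO 1 and 1961 to 2316 in the others. Fits without both WT 2 and KO 1 are given below. The dendritic cell genes Itgax, Flt3 and Zbtb46 were present in both groups. Their levels were 204 ± 16.4, 63.5 ± 4.35 and 30.4 ± 0.944 CPM in WT (SD, n = 3). In KO they were 179 ± 32.4, 74.7 ± 2.99 and 43.0 ± 4.58 CPM. Genes typical of macrophages were also present in both groups. Of all rows tested 25.8% were called, 13.8% higher and 12.0% lower in KO. Of 11 macrophage and monocyte markers tested 6 were higher and 1 lower in KO (63.6% called). Their summed levels were 21860 to 24370 CPM in WT and 18910 to 19070 CPM in KO, most of it Lyz2. Among dendritic cell markers 4 were higher and 3 lower of 11 tested (63.6% called, 6281 to 6435 CPM summed in WT, 5841 to 6543 CPM in KO). Flt3, Zbtb46, Ccr7 and Irf8 were the 4 higher, and Cd74, H2-Ab1 and Irf4 the 3 lower. Mast cell and basophil markers were higher in 3 and lower in 0 of 4 (75.0% called, 50.1 to 56.6 CPM summed in WT, 80.8 to 87.0 CPM in KO). Most of that sum was Kit, at 48.7 ± 2.92 CPM (SD) in WT and 73.8 ± 2.92 CPM in KO. Cpa3 and Mcpt8 were scarce, at 0.333 and 0.272 CPM in WT and 0.900 and 1.14 CPM in KO. Granulocyte markers were higher in 2 and lower in 0 of 6 (33.3% called, 57.8 to 71.4 CPM summed in WT, 67.0 to 86.8 CPM in KO). B cell, T and NK cell and erythroid markers summed to at most 2.43, 0.840 and 0.296 CPM in any library. The part of cell makeup in the results below was not tested, and in bulk RNA fewer cells of a type and less RNA per cell cannot be told apart.

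More of the fatty acid oxidation genes that passed were lower than higher in KO. Of 34 members tested, 10 fell, 3 rose and 21 did not pass. That is 38.2% called, against 25.8% of all rows tested. In the lower direction it was 10 of 34 against 12.0% of all rows, and in the higher direction 3 of 34 against 13.8%. Because the members were chosen with earlier results known, these shares are a description, with no test. Among the members 0 of 34 were called with a change of at least 2-fold, which 484 of all 13249 rows were. The lowest log2 fold change was -0.59 (Ppard) and the highest 0.47 (Slc25a20), and the median was -0.09, against -0.01 over all rows tested. The KO and WT libraries did not overlap in 19 members, 6 with KO above WT and 13 with KO below, where 40.4% of all rows were so separated, 20.5% above and 19.9% below. Ppard, Crot, Hadhb, Scp2 and Slc25a20 passed under all 16 alternative settings of the fit. For members over 10 CPM that did not pass (17 of 21), the 95% intervals of the log2 fold change lay within -0.40 and 0.34, so differences of up to that size are possible. The number that fell was 6 without WT 1, 6 without WT 2, 7 without WT 3 and 5 without KO 3, and 6 without WT 2 and KO 1 together. The number that rose was 1 without WT 1, 2 without WT 2 and 2 without KO 3.

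**Figure D1:**
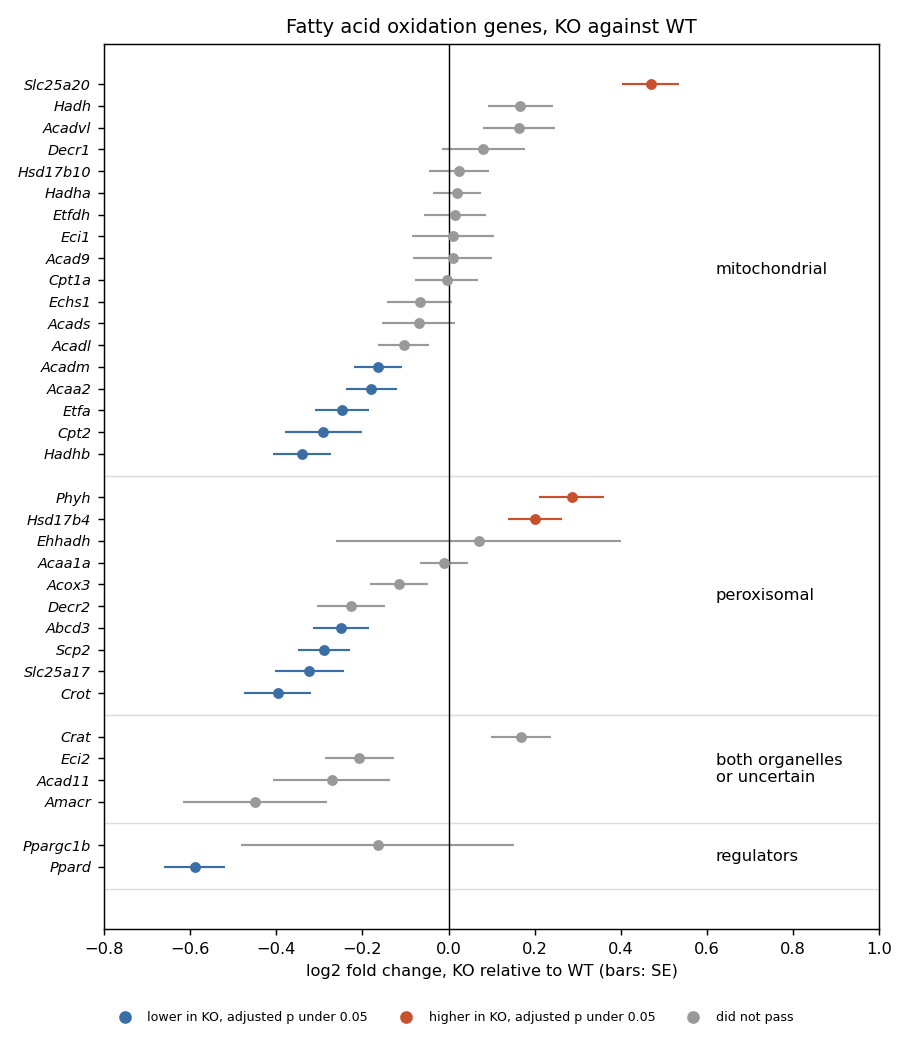
Log2 fold change (KO relative to WT, horizontal axis) of the 34 members tested, grouped by compartment; points are edgeR estimates from 3 libraries per genotype, bars the SE, and colour the call. Of 18 mitochondrial genes 9 lie below 0, with Hadhb (-0.34) lowest and Slc25a20 (0.47) highest. Of 10 peroxisomal genes 7 lie below 0, from Crot (-0.40) to Acaa1a (-0.01).

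Among the regulators, only Ppard passed of the 2 tested. The gene encodes PPARδ, the widely expressed receptor of the family (chromosome 17, 28232700 to 28301474, plus strand, mm10, with coordinates here and below from the GENCODE M21 annotation). Its level was 78.1, 78.6 and 84.0 CPM in WT 1, 2 and 3 and 48.1, 56.8 and 55.1 CPM in KO 1, 2 and 3. The lowest WT library lay well above the highest KO library. The fall was 1.505-fold (log2 fold change -0.59 ± 0.07, edgeR adjusted p = 3.8e-05). Ppara, for the receptor that governs fatty acid oxidation in liver, had 1 read in WT 2 and 0 in the other 5 libraries, and 0 reads allow up to 0.164 to 0.204 CPM per library. It was not tested. Ppargc1b, for the coactivator PGC-1β, was scarce at 1.54, 2.33 and 3.88 CPM in WT and 1.70, 2.90 and 2.26 CPM in KO. Its groups overlapped and it did not pass (edgeR adjusted p = 0.751).

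Of the carnitine shuttle genes, Slc25a20 rose, Cpt2 fell and Cpt1a did not pass. Slc25a20, the carrier that exchanges acylcarnitine for carnitine across the inner membrane (chromosome 9, 108662088 to 108684641, plus strand), had 61.1, 59.3 and 56.1 CPM in WT 1, 2 and 3 and 86.6, 75.3 and 82.6 CPM in KO 1, 2 and 3. The groups did not overlap, with KO higher, and the rise was 1.38-fold (log2 fold change 0.47 ± 0.07, edgeR adjusted p = 0.000176). Cpt2, which returns the acyl group to CoA in the matrix (chromosome 4, 107903981 to 107923610, minus strand), had 24.0, 27.0 and 26.4 CPM in WT and 20.1, 22.9 and 20.3 CPM in KO. The groups lay close together, and the fall was 1.22-fold (-0.29 ± 0.09, edgeR adjusted p = 0.0308). It did not pass without WT 2 (-0.25), WT 3 (-0.27), KO 1 (-0.25) or KO 3 (-0.26), without WT 2 and KO 1 together (-0.22) or with scaling to library size only (-0.26). Cpt1a, the outer membrane enzyme, had 190, 203 and 211 CPM in WT and 184, 220 and 197 CPM in KO. Here the groups overlapped fully, and the 95% interval of its log2 fold change ran from -0.16 to 0.16 around -0.005 (edgeR adjusted p = 0.974). Of the other CPT1 isoforms, Cpt1b had at most 1 read per library and Cpt1c 1.39 ± 0.535 CPM (SD, n = 3) for WT and 1.30 ± 0.0201 CPM for KO.

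Ratios of reads between genes of 1 library do not depend on the scaling of libraries. Slc25a20 had 2.55, 2.20 and 2.13 reads per read of Cpt2 for WT 1, 2 and 3 against 4.31, 3.29 and 4.07 for KO 1, 2 and 3. All KO ratios lay above all WT ratios, as they did in each of 9 such pairs. The pairs were chosen after their values were seen, so the ratios here and below are a description, with no test.

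The shown promoter windows of Ppard and Slc25a20, the members that fell and rose most, and of Hadhb, described next, run from 250 bases before to 50 bases after the RefSeq start (GRCm38.p6, plus strand, 5′ to 3′). Capitals mark the hypoxia response element cores ACGTG and GCGTG on either strand, so that CACGT is ACGTG read on the minus strand. Some ACGTG matches can also be part of E-boxes.
Ppard, chr17:28232504-28232803: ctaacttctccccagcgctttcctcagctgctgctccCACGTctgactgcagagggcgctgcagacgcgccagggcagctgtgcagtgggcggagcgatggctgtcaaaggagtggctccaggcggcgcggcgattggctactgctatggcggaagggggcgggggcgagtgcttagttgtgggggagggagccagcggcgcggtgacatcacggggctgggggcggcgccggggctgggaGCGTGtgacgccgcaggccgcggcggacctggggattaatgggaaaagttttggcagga
Slc25a20, chr9:108661886-108662185: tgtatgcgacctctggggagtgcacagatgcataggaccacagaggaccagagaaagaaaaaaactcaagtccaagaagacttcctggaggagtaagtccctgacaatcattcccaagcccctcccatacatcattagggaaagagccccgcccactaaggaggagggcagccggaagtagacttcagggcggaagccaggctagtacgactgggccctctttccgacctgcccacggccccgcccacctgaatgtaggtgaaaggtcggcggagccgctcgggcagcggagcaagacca
Hadhb, chr5:30155003-30155302: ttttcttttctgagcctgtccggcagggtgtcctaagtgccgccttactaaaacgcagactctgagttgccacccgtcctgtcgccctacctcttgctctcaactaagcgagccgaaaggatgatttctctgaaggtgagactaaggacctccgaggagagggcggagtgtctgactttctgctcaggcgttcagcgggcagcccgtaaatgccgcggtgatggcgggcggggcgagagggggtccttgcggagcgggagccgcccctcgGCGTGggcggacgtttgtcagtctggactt
The Ppard window held 1 match of each core, the Hadhb window 1 GCGTG and the Slc25a20 window neither. A window was found for 28 members, with 29 windows in all, of which 17 held GCGTG and 2 ACGTG. Of 9 members with a window that fell 7 held a core, of 2 that rose 0 did, and of 16 that did not pass 9 did. Over all 32851 windows 43.8% held either core, 19.6% ACGTG and 32.4% GCGTG. The PPAR response element, searched on both strands as AGGTCA repeated after 1 free base, had no exact match in a member's window and was in 0.0396% of all windows. Such short matches do not show binding.

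Among the mitochondrial acyl-CoA dehydrogenases, which take the first step on chains of different length, 1 of 5 passed. Acadm, for the medium-chain enzyme (chromosome 3, 153922357 to 153944632, minus strand), had 96.1, 88.5 and 93.1 CPM in WT 1, 2 and 3 and 84.2, 80.7 and 83.1 CPM in KO 1, 2 and 3. WT lay above KO without overlap, by 1.12-fold (log2 fold change -0.16 ± 0.06, edgeR adjusted p = 0.0432). That call was lost under 11 of the 16 alternatives, among them the fits without WT 1 (-0.13), WT 2 (-0.19), WT 3 (-0.15), KO 2 (-0.14) and KO 3 (-0.17), with adjusted p from 0.0179 to 0.211 over all 16. The long-chain, short-chain and ACAD9 genes Acadl, Acads and Acad9 overlapped between groups, with log2 fold changes of -0.10 ± 0.06, -0.07 ± 0.08 and 0.01 ± 0.09. Acadvl, for the very-long-chain enzyme, had 23.1, 22.5 and 21.7 CPM in WT and 23.7, 25.2 and 26.6 CPM in KO. Its groups did not overlap, but the difference did not pass (0.16 ± 0.08, edgeR adjusted p = 0.175). Exons of Acadvl share 42.9% of their bases with Dvl2 on the opposite strand, so its level is uncertain where counting ignored strand.

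Electrons from these dehydrogenases pass through the electron transfer flavoprotein to its ubiquinone oxidoreductase. Etfa, the α subunit of the flavoprotein (chromosome 9, 55454508 to 55512243, minus strand), had 74.3, 76.2 and 67.3 CPM in WT 1, 2 and 3 and 61.5, 59.9 and 62.3 CPM in KO 1, 2 and 3. KO lay below WT in every library, by 1.19-fold (log2 fold change -0.25 ± 0.06, edgeR adjusted p = 0.0111), but did not pass without WT 1 (-0.22), WT 2 (-0.21) or WT 2 and KO 1 together (-0.21). Etfdh, the oxidoreductase gene, overlapped between groups (0.01 ± 0.07). The β subunit gene Etfb had 0 to 8 reads per library, and 53.0% of its exon bases are shared with the gene Gm45233 on the same strand. The part of that overlap in its low count was not tested.

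Of the subunit genes of the trifunctional protein, which carries out the last steps on long chains, Hadhb fell and Hadha did not pass. Hadhb, for the β subunit with thiolase activity (chromosome 5, 30155248 to 30184593, plus strand), had 53.2, 51.7 and 49.7 CPM in WT 1, 2 and 3 and 38.3, 41.4 and 42.7 CPM in KO 1, 2 and 3. KO was lower without overlap, by 1.27-fold (log2 fold change -0.34 ± 0.07, edgeR adjusted p = 0.00245). Hadha, for the α subunit (chromosome 5, 30118304 to 30155162, minus strand), had 140, 144 and 139 CPM in WT and 138, 146 and 145 CPM in KO. Its groups overlapped, and the 95% interval of its log2 fold change was -0.10 to 0.14. Reads of Hadha per read of Hadhb were 2.63, 2.79 and 2.80 for WT 1, 2 and 3 against 3.62, 3.53 and 3.40 for KO 1, 2 and 3, so the ratio was higher in every KO library. The genes stand head to head with 85 bases between their annotated bodies, and 228 bases of the Hadhb window printed above are also in the Hadha window.

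The remaining mitochondrial enzymes mostly overlapped between groups. Acaa2, for the medium-chain thiolase (chromosome 18), had 55.6, 55.7 and 54.4 CPM in WT 1, 2 and 3 and 47.7, 48.0 and 50.8 CPM in KO 1, 2 and 3. It was 1.13-fold lower in KO (log2 fold change -0.18 ± 0.06, edgeR adjusted p = 0.043). Acaa2 was the least secure call among the members: it was lost under 13 of 16 alternatives, including the removal of any 1 library (WT 1 -0.17, WT 2 -0.17, WT 3 -0.18, KO 1 -0.16, KO 2 -0.16 and KO 3 -0.21), with adjusted p from 0.042 to 0.193 over all 16. Hadh, the short-chain hydroxyacyl-CoA dehydrogenase, stood at 33.2 ± 0.734 CPM (SD) for WT and 37.3 ± 2.61 CPM for KO with no overlap, but did not pass (edgeR adjusted p = 0.128). Echs1, the short-chain hydratase, Hsd17b10, and the isomerase and reductase genes for unsaturated chains, Eci1 and Decr1, had log2 fold changes from -0.07 (Echs1) to 0.08 (Decr1), and none of the 4 passed.

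In the peroxisomal group 4 of 10 genes fell, 2 rose and 4 did not pass. Both transporter genes were lower in KO. Slc25a17, for the carrier of CoA and other cofactors (chromosome 15, 81318911 to 81360812, minus strand), had 28.4, 27.8 and 28.8 CPM in WT 1, 2 and 3 and 22.9, 23.7 and 21.4 CPM in KO 1, 2 and 3. WT libraries lay within 1 CPM of each other and all above KO, and the fall was 1.25-fold (log2 fold change -0.32 ± 0.08, edgeR adjusted p = 0.0101). Abcd3, for the ABC transporter PMP70 that brings in branched-chain and dicarboxylic acids (chromosome 3, 121758774 to 121815302, minus strand), had 53.6, 52.8 and 54.2 CPM in WT and 42.5, 48.2 and 44.5 CPM in KO. It fell 1.19-fold (-0.25 ± 0.07, edgeR adjusted p = 0.0135). Slc25a17 did not pass without KO 3 (-0.28), nor Abcd3 without WT 1 (-0.24), KO 3 (-0.24) or WT 2 and KO 1 together (-0.22).

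Core enzymes of the peroxisomal cycle went both ways. Hsd17b4, the D-bifunctional protein that carries out hydration and the second dehydrogenation (chromosome 18), had 133, 132 and 137 CPM in WT 1, 2 and 3 and 160, 143 and 159 CPM in KO 1, 2 and 3. KO lay above WT, with KO 2 the nearest, and the rise was 1.15-fold (log2 fold change 0.20 ± 0.06, edgeR adjusted p = 0.0297). It did not pass without WT 1 (0.20), WT 2 (0.19), KO 1 (0.17) or KO 3 (0.18), nor without WT 2 and KO 1 together (0.17). Scp2, whose longer product is the thiolase for branched chains and whose shorter product is a sterol carrier (chromosome 4, 108043839 to 108144998, minus strand), had 140, 147 and 133 CPM in WT and 118, 117 and 109 CPM in KO. It fell 1.22-fold (-0.29 ± 0.06, edgeR adjusted p = 0.00375), and gene-level counts do not tell its products apart. Scp2 lies 120228 bases from Cpt2, which also fell. Reads of Hsd17b4 per read of Scp2 were 0.948, 0.898 and 1.03 for WT 1, 2 and 3 against 1.35, 1.23 and 1.46 for KO 1, 2 and 3, higher in every KO library.

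The oxidase and straight-chain thiolase genes overlapped between groups. Acox3, for the oxidase of branched chains, stood at 144 ± 6.08 CPM (SD) for WT and 133 ± 10.5 CPM for KO (log2 fold change -0.12 ± 0.07), and passed only with an offset for GC content and length (-0.17). Acaa1a, the thiolase gene, was at 88.5 ± 0.907 and 87.9 ± 4.03 CPM (-0.01 ± 0.06). Ehhadh, for the L-bifunctional protein, a strong PPARα target in liver, was scarce at 12 to 23 reads per library, with overlap. Acaa1a has a close paralogue, Acaa1b, at 0.394 ± 0.193 CPM in WT, and reads of the pair may be split.

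For branched chains and for export the peroxisomal genes again differed. Phyh, the hydroxylase that starts the breakdown of phytanic acid and itself a 2-oxoglutarate-dependent oxygenase (chromosome 2, 4919019 to 4938730, plus strand), had 34.0, 36.2 and 36.6 CPM in WT 1, 2 and 3 and 46.7, 40.6 and 42.8 CPM in KO 1, 2 and 3. Every KO library was higher, and the rise was 1.22-fold (log2 fold change 0.29 ± 0.08, edgeR adjusted p = 0.0136). It did not pass without WT 1 (0.26) or without WT 2 and KO 1 (0.24). Crot, which makes carnitine esters of medium chains for export (chromosome 5, 8966033 to 8997324, minus strand), had 36.5, 35.3 and 33.4 CPM in WT and 27.3, 25.3 and 27.3 CPM in KO. The groups were well apart, and the fall of 1.32-fold (-0.40 ± 0.08, edgeR adjusted p = 0.00217) was the largest among the enzymes that passed. Decr2, for the peroxisomal reductase of unsaturated chains, stood at 30.6 ± 1.04 CPM (SD) for WT and 26.2 ± 1.17 CPM for KO without overlap, and missed the threshold narrowly (-0.23 ± 0.08, edgeR adjusted p = 0.0502). Under 6 of 16 alternatives it did pass, among them the omission of KO 1 (-0.26) or of WT 2 and KO 1 (-0.28), with adjusted p from 0.0416 to 0.182 over all 16.

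**Figure D2:**
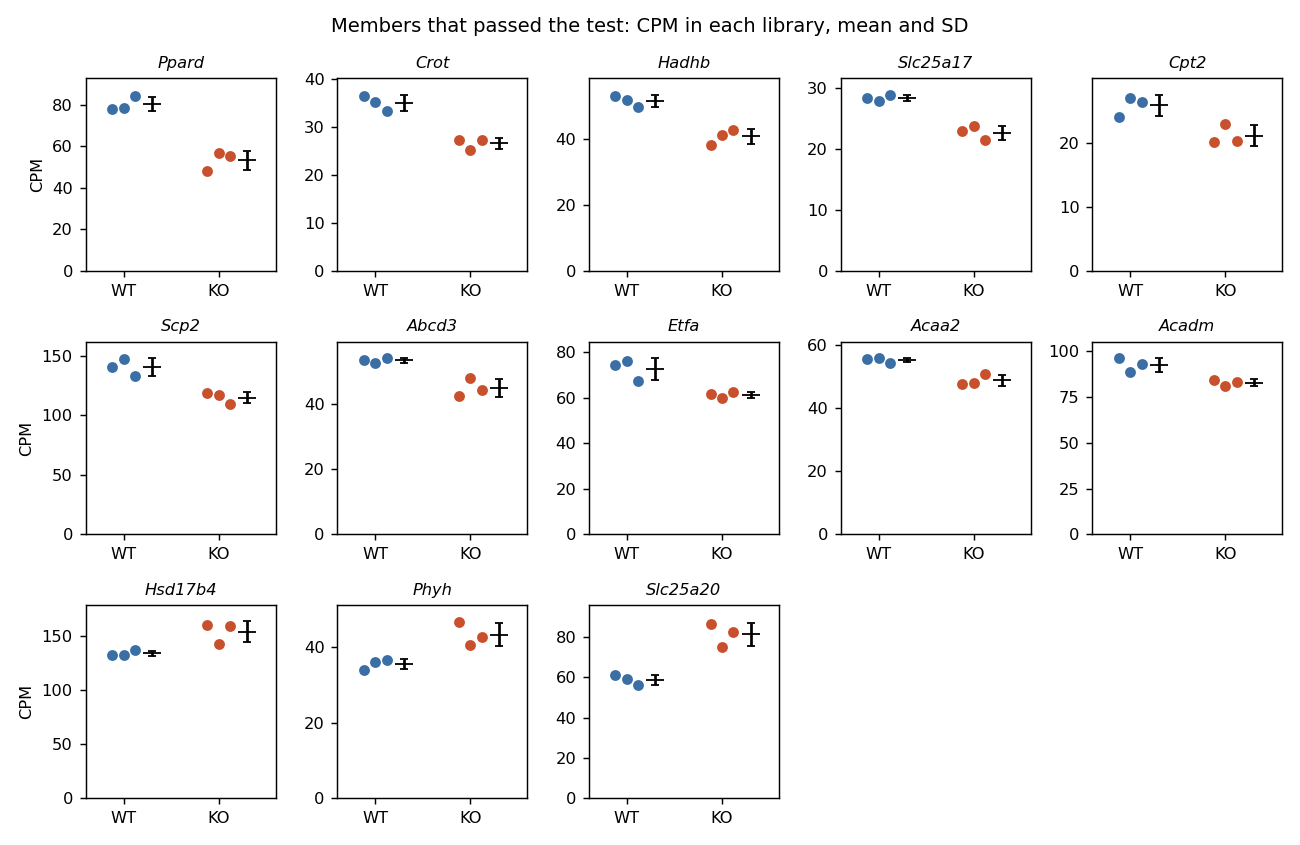
CPM (vertical axes, from 0) of the 13 members that passed, in each library of WT (blue) and KO (orange); the black mark beside each group is the mean with SD (n = 3). The groups do not overlap in any panel, and the 3 genes that rose, Hsd17b4, Phyh and Slc25a20, are in the bottom row.

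Of the genes whose products work in both organelles or whose place is uncertain, 0 of 4 passed in edgeR, DESeq2 or limma-voom. In edgeR 3 of them had an unadjusted p under 0.05, Eci2 and Amacr with KO below WT and Crat with KO above. Crat, which makes acetylcarnitine, had 57.1, 56.8 and 51.1 CPM in WT 1, 2 and 3 and 57.5, 65.0 and 63.1 CPM in KO 1, 2 and 3. KO 1 almost met WT 1, and the log2 fold change was 0.17 ± 0.07 (edgeR adjusted p = 0.0935). The call was gained when KO 1 (0.22) or WT 2 and KO 1 (0.24) were left out and with scaling to library size only (0.20). Eci2, an isomerase, stood at 25.0 ± 0.664 CPM (SD) for WT and 21.6 ± 0.339 CPM for KO (edgeR adjusted p = 0.0747), and passed only with the GC and length offset (-0.23). Amacr, the racemase for branched chains, had 6.03 ± 1.11 and 4.42 ± 0.316 CPM (adjusted p = 0.0664). Acad11, for a dehydrogenase of long chains, had 9.20 ± 0.787 and 7.64 ± 0.948 CPM, with overlap. Reads of Crat per read of Crot, the acetyl- and octanoyl-carnitine enzymes, were 1.56, 1.61 and 1.53 for WT 1, 2 and 3 against 2.11, 2.57 and 2.31 for KO 1, 2 and 3. The ratio was higher in every KO library.

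**Figure D3:**
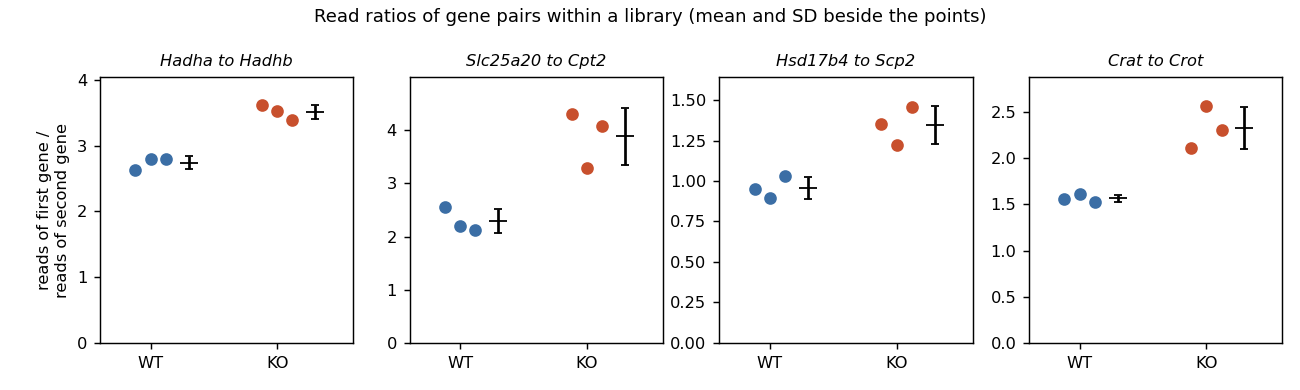
Reads of one gene per read of another in the same library (vertical axes, from 0) for 4 pairs, in WT (blue) and KO (orange), with the mean and SD (n = 3) beside the points. For Hadha to Hadhb the WT libraries lie between 2.63 and 2.80 and the KO libraries between 3.40 and 3.62, and the groups are apart in the other pairs too.

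Set side by side, the mitochondrial group had 1 gene that rose, 5 that fell and 12 that did not pass of 18, and the peroxisomal group 2, 4 and 4 of 10. That is 33.3% called in the mitochondrial and 60.0% in the peroxisomal group, against 25.8% of all rows, of which 13.8% were higher and 12.0% lower. The median log2 fold change was 0.002 for mitochondrial and -0.17 for peroxisomal genes, a difference of 0.17, against -0.01 over all rows tested. Other genes of these pathways, described below, had the reverse order, with medians of -0.10 (mitochondrial) and -0.05 (peroxisomal). Without KO 3 those 2 medians were -0.08 and -0.09. For the members, over the alternative fits, the mitochondrial median ran from -0.03 to 0.04 and so changed sign, and the peroxisomal median from -0.20 to -0.14. Taken by library and relative to the WT mean, the mitochondrial median minus the peroxisomal median was 0.02, 0.03 and -0.05 for WT 1, 2 and 3 against 0.15, 0.13 and 0.18 for KO 1, 2 and 3. These values lay apart, but the WT values are centred near 0 by construction and the members were chosen with results known, so no test was made. Summed levels were closer. Mitochondrial genes summed to 1059, 1084 and 1049 CPM in WT and 1022, 1058 and 1052 CPM in KO, and peroxisomal genes to 685, 696 and 692 CPM in WT and 664, 652 and 648 CPM in KO. The mitochondrial to peroxisomal ratio of sums was 1.52 to 1.56 in WT and 1.54 to 1.63 in KO, with overlap. The number of mitochondrial genes that fell was 1 to 3 when 1 library was left out (2 without WT 1, 1 without WT 2, 2 without WT 3, 3 without KO 1, 3 without KO 2 and 2 without KO 3) and 1 without WT 2 and KO 1. Without KO 3, 2 peroxisomal genes fell, and the number that rose was 0 without WT 1, 1 without WT 2, KO 1 or KO 3, and 0 without WT 2 and KO 1.

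Levels per length, as CPM per kb of the principal transcript, spanned both organelles. In WT the highest were Scp2 (53.1 ± 2.81), Etfa (52.2 ± 3.37), Acaa1a (50.2 ± 0.515) and Hsd17b4 (49.96 ± 0.892), and neighbours in that order lay within their SD (n = 3) of each other. Cpt1a (46.6 ± 2.45) and Acadm (45.2 ± 1.86) followed and also lay within their spread. In KO the order at the top was Hsd17b4 (57.4 ± 3.62), Acaa1a (49.9 ± 2.29), Cpt1a (46.4 ± 4.20) and Slc25a20 (45.7 ± 3.22), the last up from 33.0 in WT. Cpt2, at 10.9 ± 0.669 in WT and 8.89 in KO, was the lowest of the carnitine shuttle genes. The lowest of the members with a level were Ehhadh (0.373 ± 0.122) and Ppargc1b (0.706 ± 0.327). Transcript length is annotated, not measured, so these levels are approximate.

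**Figure D4:**
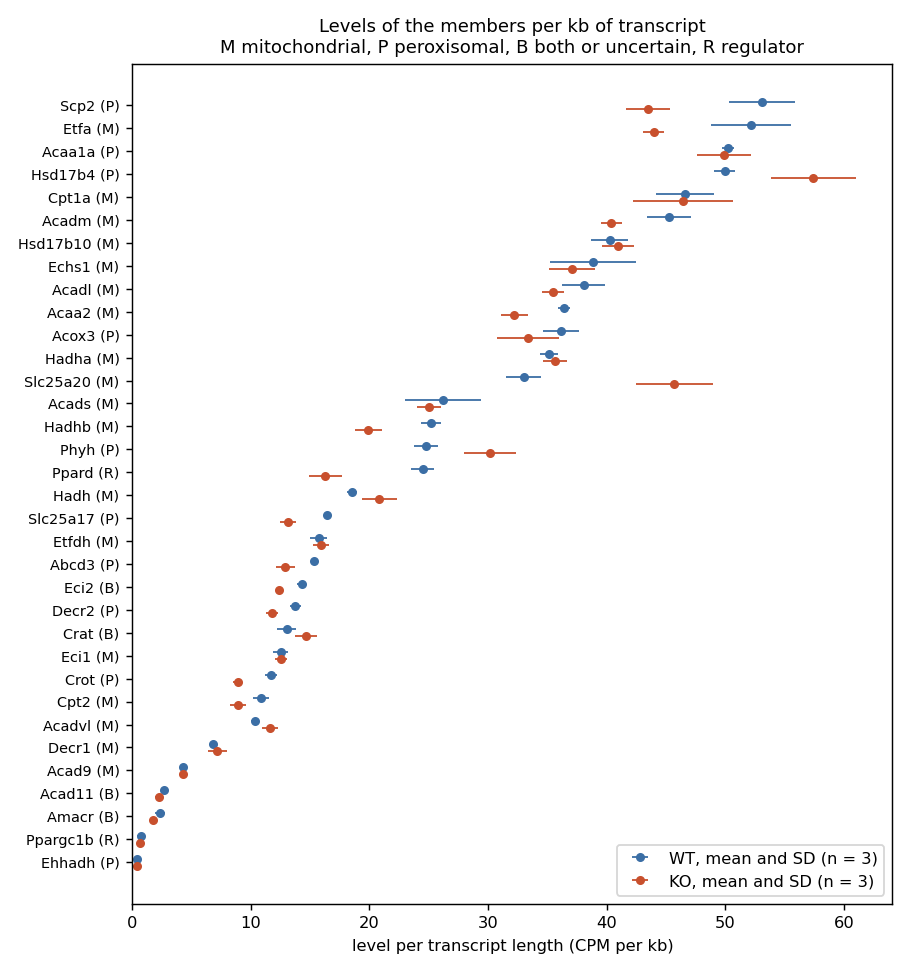
Level per kb of principal transcript (CPM per kb, horizontal axis) of 34 members in WT (blue) and KO (orange), mean and SD of 3 libraries, ordered by WT. Slc25a20 and Hsd17b4 lie to the right in KO, and Scp2, Etfa and Ppard to the left.

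Of the other genes of the same pathways, 25.0% of the mitochondrial and 37.5% of the peroxisomal genes tested were called, against 25.8% of all rows. Of 12 other mitochondrial genes tested 0 rose and 3 fell (median log2 fold change -0.10): Acot13, a thioesterase (log2 fold change -0.37), Acad12, a dehydrogenase relative (-0.27), and the thiolase gene Acat1 (-0.26). Only 1 fell without KO 3, and 1 fell and 1 rose without WT 2 and KO 1. Of 16 other peroxisomal genes 1 rose and 5 fell (median -0.05). Cat, for the catalase that removes the hydrogen peroxide of the first step, went from 524 ± 15.2 to 287 ± 9.61 CPM (SD, log2 fold change -0.87 ± 0.06, edgeR adjusted p = 2.76e-07). Abcd2, a transporter of very-long-chain acids, was 1.48-fold lower, the protease gene Lonp2 1.19-fold, the reductase gene Pecr 1.64-fold and the hydrolase gene Nudt7 1.34-fold. Without WT 2, 3 of this list fell. The number that rose was 0 in the fits that omit WT 1, WT 2, KO 2 and KO 3 in turn.

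Of organelle genes outside the cycles, 3 of 16 peroxins and 3 of 20 mitochondrial housekeeping genes were called, against 25.8% of all rows. Of 16 peroxins, which build peroxisomes, 0 rose and 3 fell, among them Pex2 (log2 fold change -0.26) and Pex13 (-0.24). Just 1 of the 16 fell without WT 1, WT 2 or KO 2. With scaling to library size only, and with the GC and length offset, 1 fell and 1 rose. Of 20 mitochondrial housekeeping genes 1 rose and 2 fell (median -0.006), namely Timm50, an import gene, 1.21-fold higher, Vdac1, the outer membrane channel, 1.58-fold lower, and the import receptor gene Tomm20 1.26-fold lower. Timm50 did not pass without WT 1, WT 3, KO 2 or KO 3, nor with the GC and length offset.

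In the receptors' wider network 17.6% of genes tested were called and among other targets of PPARs 72.7%, against 25.8% of all rows, in both directions. Of 17 cofactors and partners tested 2 rose and 1 fell: Nrip1, a corepressor, 1.22-fold and Pprc1, a PGC-1 relative, 1.29-fold higher, and Lpin1, which makes diacylglycerol and coactivates PPARα, 1.27-fold lower. When WT 1, WT 2 or KO 3 was left out 1 rose, and 5 rose without KO 1. Of 11 PPAR targets outside the cycles 5 rose and 3 fell. Tgm2, a transglutaminase, was 1.73-fold, the lipid droplet gene Plin2 1.39-fold and the carrier gene Ucp2 1.31-fold higher, and Fabp4, a fatty acid binding protein, was 1.56-fold lower. Pdk4, a target of PPARδ in many tissues, had at most 2 reads in any library.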

How the data were processed

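Raw counts by gene symbol were deposited by the authors as 1 table of 6 libraries, 3 WT and 3 KO, without normalization. Per the submitters' processing notes, reads were handled on mm10 with HISAT2, HISAT, TopHat2, HTSeq, SAMtools and DESeq2, of which neither versions nor roles are recorded. For the annotation, strand setting and multiply aligned reads the answer is not given in the sources used here.

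The members and lists were chosen with earlier results of these data known. Where 23 symbols repeated over 47 rows, the symbol went to the row with most reads. Rows were filtered with filterByExpr (minimum count 10, 13249 of 30587 rows kept), scaled by TMM and tested with edgeR 4.0.16 in R 4.3.3, genotype the only term. The SE is the log2 fold change over the square root of F. The members' compartments were set by hand. The text gives all members, each called, shuttle or regulatory one by library, and up to 4 called genes per list by lowest p; Nudt7 was added after its values were seen, and some listed genes are not reported here.

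Alternatives were DESeq2 size factors, library size only, no filter, 10 counts in every library of a group, DESeq2 1.42.0, limma-voom (limma 3.58.1), robust dispersion, replicate block, a GC and length offset (mgcv 1.9.3), each library left out, adjusted p under 0.01, another class rule and, chosen after seeing the data, no WT 2 and KO 1. Replicates differed by more than sampling noise (chi-square per degree of freedom at least 4.1). Intervals and floors cover the errors of this fit and of counting only. Protein sequences were not used here.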

Additional observations from a re-analysis of the deposited data

How the results depend on the processing

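Of 10 members that fell, 4 (Ppard, Crot, Hadhb and Scp2) passed under all 16 alternative fits, as did Slc25a20 of the 3 that rose. The 5 mitochondrial genes that fell were 2 with library size only, 3 with no low-count filter, with DESeq2, with limma-voom or with the replicate block, and 1 without WT 2 and KO 1. Correlations of deviations between same-numbered WT and KO libraries were 0.015, -0.11 and 0.08. Between WT and KO libraries of different number they ran from -0.21 to 0.184. So few values cannot show whether the replicate numbers pair the libraries. With the replicate block 8 members fell, 3 rose and 3247 rows were called, against 10, 3 and 3412. At an adjusted p under 0.01, 4 members fell and 1 rose, among them 1 mitochondrial and 2 peroxisomal that fell and 0 peroxisomal that rose, of 1913 rows called. Without WT 2 and KO 1 the members were 6 lower and 2 higher, with 0 peroxisomal higher. Leaving out 1 library at a time gave 5 to 9 members lower, 1 to 3 higher, 1 to 3 mitochondrial lower, 2 to 5 peroxisomal lower, 0 to 2 peroxisomal higher, and 2127 (without KO 3) to 3614 rows called. The difference of medians, mitochondrial minus peroxisomal, was 0.17 and ran from 0.14 to 0.20 over the fits, and was 0.22 with Crat, Eci2, Amacr and Acad11 counted as peroxisomal. Some genes near 0 changed sign, Echs1 and Ppargc1b among them: leaving out 1 library moved Echs1 from -0.11 to 0.0132 (without WT 2) and Ppargc1b from -0.44 to 0.25 (without WT 3), and neither passed. Library size only left 62.3% of all calls higher, against 53.5%. At most 57 reads of Ppargc1b and 23 of Ehhadh per library limit what can be said of them.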
